A study of Homo sapiens with 6 samples.

Results

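10 secreted factors and receptors were described in prostate stromal cells exposed to lactate, and they were chosen by name as rows of the deposited count table: the VEGF ligands *VEGFA*, *VEGFB* and *VEGFC*, the PDGF ligands *PDGFA* and *PDGFC*, the PDGF receptors *PDGFRA* and *PDGFRB*, and the factors *ANGPT1*, *ANGPTL4* and *FGF2*. All 10 were among the 15924 listed gene symbols, and all 10 had enough counts to be tested. The lactate group consisted of WPMY-1, a human stromal line from prostate that has been immortalized, given 24 mM lactate for 48 h (n = 3 libraries), and the control group was the same line without added lactate (n = 3 libraries). Both groups came from 1 cell line, with no endothelial cells added for these factors to act on, and no gene was edited in either group. According to the study's methods, the lactate was given as lactic acid at a mildly acidic, buffered pH, in HEPES medium lacking bicarbonate and CO2, although the labels give culture under CO2. The pH of the control medium is not given, so acidity and lactate cannot be told apart. The samples are labelled as biological replicates, and how the cultures were kept apart is not given.

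VEGF ligands bind receptor tyrosine kinases on endothelial cells, where VEGFA drives the sprouting of blood vessels and VEGFC that of lymphatic vessels, and *VEGFA* is a classical target of the hypoxia-inducible factors (HIF). PDGF ligands act mainly on mesenchymal cells such as fibroblasts and pericytes, through the receptors encoded by *PDGFRA* and *PDGFRB*. Stromal fibroblasts of tumors are known as a source of VEGFA, FGF2 and PDGF ligands.

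The libraries held 20392320 to 24055634 counts with lactate and 20238653 to 46505372 in control, the highest in control replicate 1. Replicate 1 of each group stood apart from replicates 2 and 3 in base composition and transcript length. The rank correlation across genes between a library's deviation from the mean and the GC content of the transcript was 0.636 in lactate replicate 1, against -0.0057 and 0.260 in lactate replicates 2 and 3. It was 0.382 in control replicate 1, against -0.600 and -0.727 in control replicates 2 and 3. Without replicate 1, every control value lay below every lactate value. Leaving replicate 1 out therefore does not remove the difference in base composition between the groups. With transcript length the correlation was -0.480 in lactate replicate 1, against 0.265 and 0.185 in lactate replicates 2 and 3. In control replicate 1 it was -0.267, against 0.175 and 0.353 in control replicates 2 and 3. Genes are not independent replicates, and these correlations describe the libraries only. The stromal markers fixed for the line summed to 6171 to 6579 CPM (read counts relative to library size, scaled by TMM) with lactate and 5841 to 6558 CPM in control. Much of this sum was *VIM* (2676 CPM with lactate, 2797 CPM in control) and *COL1A1* (1459.6 and 1410.5 CPM). *FAP* (1.12 and 2.01 CPM) and *LUM* (0.498 and 1.70 CPM) were low. Of the 10 stromal markers 1 was called, *COL6A2*, at 271 CPM with lactate and 145 CPM in control (edgeR adjusted p = 0.0140). *FN1* averaged 641 ± 216 and 355 ± 73.8 CPM (edgeR adjusted p = 0.0728). The endothelial markers summed to 13.4 to 17.2 CPM with lactate and 7.95 to 10.1 CPM in control, mostly from *TIE1* and *TEK*, and the endothelial genes *PECAM1*, *CDH5* and *VWF* averaged under 1 CPM in both groups. The epithelial gene *KRT18* averaged 864 ± 204 CPM with lactate and 936 ± 220 CPM in control (SD, n = 3 each). *KRT8* averaged 87.2 ± 15.9 CPM with lactate and 67.6 ± 17.0 CPM in control, while *EPCAM* and *CDH1* averaged under 1 CPM. The smooth muscle gene *DES* averaged 0.0552 CPM with lactate and 0.0449 CPM in control, too low to be tested. *TAGLN* averaged 546 ± 124 CPM with lactate and 183 ± 44.3 CPM in control (log2 fold change 1.57, edgeR adjusted p = 0.00548). The edgeR adjusted p was 0.0231 for *CNN1* (1.09), 0.0914 for *ACTA2* (0.68) and 0.0676 for *MYL9* (0.68). Smooth muscle markers summed to 843 to 1217 CPM with lactate and 379 to 573 CPM in control, pericyte markers to 193 to 220 CPM with lactate and 143 to 164 CPM in control, and leukocyte markers, almost all *CD68*, to 78.8 to 101 CPM with lactate and 56.3 to 60.6 CPM in control. Of 6 pericyte markers 2 were called, both higher with lactate: *NOTCH3* (log2 fold change 1.95, edgeR adjusted p = 0.00147) and *KCNJ8* (1.77, edgeR adjusted p = 0.0065). *CD68* was also called (0.67, edgeR adjusted p = 0.0280). An adjusted p under 0.05 was lost in some alternative fits for *CNN1*, *COL6A2* and *CD68*, and in none for *TAGLN*, *NOTCH3* and *KCNJ8*. Of all tested genes, 9.43% had an edgeR adjusted p under 0.05. The part of these shifts in the values below was not tested, and in bulk RNA fewer cells of a type and less RNA per cell cannot be told apart.

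The RefSeq promoter table (build GRCh38.p14, windows of 300 bases) held 7 of the 10 genes. *VEGFA*, *PDGFC* and *ANGPT1* were not matched. The stretch of 250 bases before the start site is shown for *VEGFB*, *VEGFC* and *ANGPTL4*, as examples picked with their values known. *VEGFB* is among the genes whose sign turned with the correction for base composition, and *VEGFC* and *ANGPTL4* are among those that did not turn. Each is written 5′ to 3′ along the gene, and capitals mark the motifs found on either strand: the HIF core (ACGTG or GCGTG), the SP1-type GC box (GGGCGG) and the TATA box (TATAAA). The *VEGFB* stretch is chr11:64234334-64234583 on the plus strand, the *VEGFC* stretch chr4:176792923-176793172 on the minus strand and the *ANGPTL4* stretch chr19:8363905-8364154 on the plus strand.
VEGFB: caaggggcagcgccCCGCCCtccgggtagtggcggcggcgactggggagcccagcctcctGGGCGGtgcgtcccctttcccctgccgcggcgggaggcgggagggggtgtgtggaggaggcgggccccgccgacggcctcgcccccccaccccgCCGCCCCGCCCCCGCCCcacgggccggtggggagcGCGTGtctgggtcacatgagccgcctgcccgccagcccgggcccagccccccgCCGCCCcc
VEGFC: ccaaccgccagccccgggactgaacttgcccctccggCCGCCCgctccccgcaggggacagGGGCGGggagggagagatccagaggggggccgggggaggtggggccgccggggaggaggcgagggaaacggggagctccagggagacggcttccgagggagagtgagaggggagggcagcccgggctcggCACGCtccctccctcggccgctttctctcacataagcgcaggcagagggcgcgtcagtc
ANGPTL4: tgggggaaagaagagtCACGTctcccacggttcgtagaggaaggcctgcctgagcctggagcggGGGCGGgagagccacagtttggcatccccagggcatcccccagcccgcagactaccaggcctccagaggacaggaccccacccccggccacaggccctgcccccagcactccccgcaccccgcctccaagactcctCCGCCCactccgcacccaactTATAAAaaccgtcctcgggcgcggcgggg
The *VEGFB* stretch was 82.8% G and C and held 6 GC boxes, some of them overlapping, and a HIF core starting at position -61 from the start site. The *VEGFC* stretch held 2 GC boxes and a HIF core on the opposite strand at -59. Of the 7 genes with a window, *ANGPTL4* alone had a TATA box, at -29, together with 2 GC boxes and a HIF core at -234. Of all 35116 RefSeq windows, 48.4% held a HIF core, 45% a GC box, 11.5% a TATA box and 4.95% an AP-1 motif (TGACTCA or TGAGTCA). No window of these 7 genes held the AP-1 letters. Matches describe the sequence and are not binding sites.

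Levels of different genes were set side by side per kilobase of transcript. With the longest transcript that GENCODE pairs with a RefSeq record, a length added after seeing the data, the VEGF ligands stood at the top of the 10 genes in both groups. In these units, *VEGFB* had 56.9 ± 12.2 CPM per kilobase with lactate and 45.4 ± 9.53 in control, *VEGFA* 33.7 ± 0.599 with lactate and 28.1 ± 0.982 in control, and *VEGFC* 31.0 ± 0.682 with lactate and 38.1 ± 1.47 in control (SD, n = 3 each). So *VEGFA* ranked above *VEGFC* with lactate and below it in control, while *VEGFB* and *VEGFC* did not differ beyond their spread in control. *FGF2* followed at 15.0 ± 1.66 CPM per kilobase with lactate and 15.4 ± 3.98 in control, and *PDGFC* at 10.7 ± 0.631 with lactate and 14.8 ± 2.83 in control, so that these neighbours did not differ beyond their spread in control. *PDGFRB* had 6.50 ± 0.208 CPM per kilobase with lactate and 6.38 ± 0.977 in control, *PDGFA* 4.50 ± 0.339 with lactate and 5.04 ± 0.268 in control, and *ANGPTL4* 1.43 ± 0.593 with lactate and 2.00 ± 0.0837 in control. *PDGFRA* (0.690 ± 0.155 with lactate and 1.02 ± 0.343 in control) and *ANGPT1* (0.0598 ± 0.0612 with lactate and 0.0976 ± 0.0532 in control) closed the order. The order rests on the transcript chosen. For *VEGFA* the longest annotated transcript of 12167 bases gave 9.80 CPM per kilobase with lactate and 8.18 in control, rank 5 of 10, and the median length of 1098.5 bases gave 109 with lactate and 90.6 in control, rank 1. With median lengths the VEGF ligands did not keep the top 3 places. *PDGFC* then had 56.5 with lactate and 78.2 in control, rank 3 with lactate and rank 2 in control, and *PDGFRB* had 52.2 with lactate, above *VEGFC* at 45.3. *FGF2* took rank 6 in both groups. The labels describe poly(A) directional libraries, whereas the study's library section describes a 3′ end kit. Counts of 3′ end libraries do not scale with transcript length, so if that kit was used here these levels per kilobase and their order would not hold. The isoforms expressed here are not known from gene counts.

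The comparison asks whether lactate, a product of tumor glycolysis, changes the vascular and growth factor program of stromal cells. None of the 10 genes passed the threshold of 0.05 on the adjusted p of edgeR's quasi-likelihood test, while 9.43% of all tested genes did (1244 of 13188). At an unadjusted p under 0.05, 2 of the 10 were found, *VEGFC* and *PDGFC*, against 27.8% of all tested genes. DESeq2 also called 0 of 10, against 17% of all tested genes, with 2 of 10 and 29.8% under the unadjusted limit. For limma-voom these were 0 of 10 against 8.08%, and 2 of 10 against 26.5%. The levels of the groups did not overlap for 3 of the 10 genes (*VEGFA*, *VEGFC* and *PDGFC*), against 32.6% of all tested genes. The median log2 fold change of the 10 was -0.23, with 7 below 0 and 3 above, and that of all tested genes was -0.02. A gene that missed the threshold may still have changed by any amount inside the interval given for it below.

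**Figure D1:**
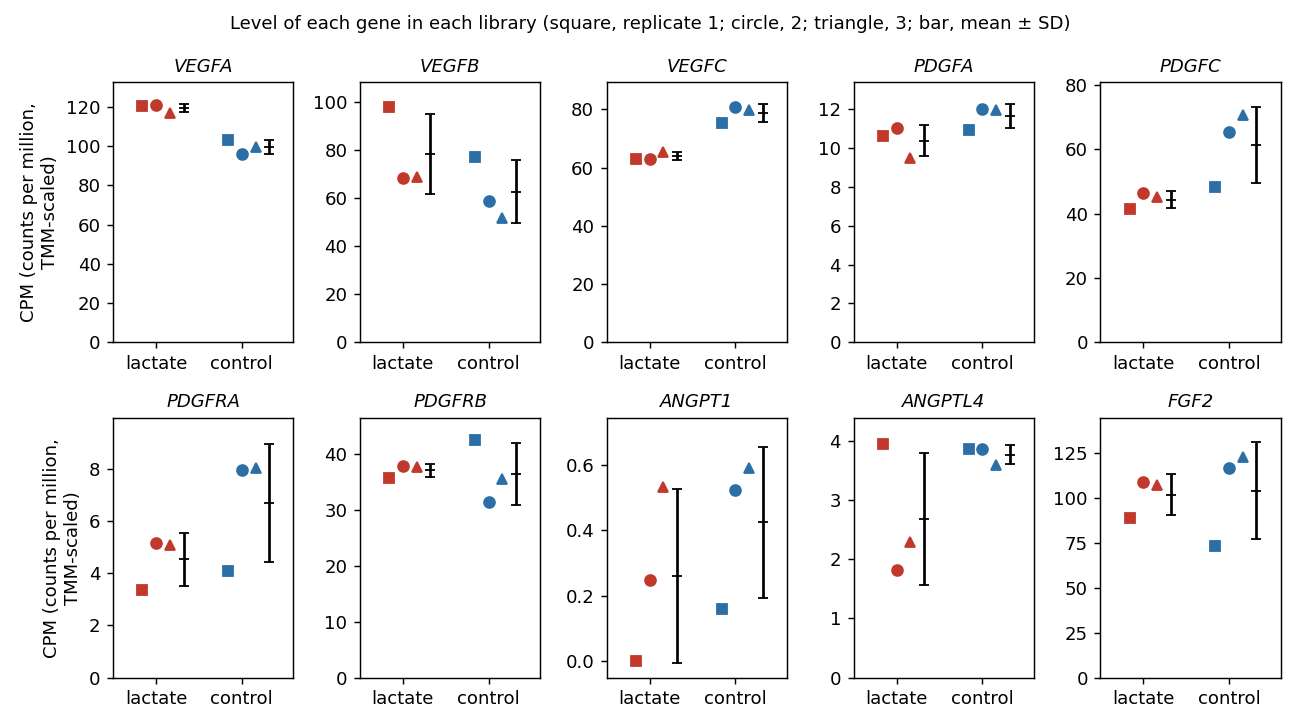
CPM of each of the 10 genes (y axes from 0, except for *ANGPT1*) in the 3 lactate libraries, at left in red, and the 3 control libraries, at right in blue, with the mean ± SD beside them. The groups do not overlap for *VEGFA*, *VEGFC* and *PDGFC*, and the squares show where replicate 1 stands away from the other libraries of its group.

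Among the VEGF ligands, *VEGFA* was higher and *VEGFC* lower in every lactate library, each by a small amount that did not pass the threshold. *VEGFA* (chr6:43770184-43786487, plus strand) had 120 CPM, 121 CPM and 117 CPM in lactate replicates 1, 2 and 3, against 103 CPM, 96.0 CPM and 99.5 CPM in control replicates 1, 2 and 3. The lowest lactate library thus lay above the highest control library. The log2 fold change was 0.26 (SE 0.126, 95% interval -0.02 to 0.55, edgeR adjusted p = 0.211). After removal of each library's trend on GC content and transcript length it was 0.16 (adjusted p = 0.139). *VEGFC* (chr4:176683538-176792727, minus strand), the ligand for lymphatic growth, had 63.1 CPM, 63.0 CPM and 65.5 CPM in the lactate libraries, against 75.2 CPM, 80.9 CPM and 79.9 CPM in control. Every lactate library lay below every control library, and the log2 fold change was -0.30 (SE 0.130, interval -0.59 to -0.01, unadjusted p = 0.0457, edgeR adjusted p = 0.171). *VEGFC* overlaps an annotated antisense gene over 22608 bases, and whether counting used strand is not given. Neither gene varied much within its group, as replicate 1 differed from the mean of the other libraries by log2 ratios of 0.02 with lactate and 0.07 in control for *VEGFA*, and of -0.03 with lactate and -0.10 in control for *VEGFC*.

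*VEGFB* (chr11:64234538-64238793, plus strand), a ligand of VEGFR1 linked to fatty acid uptake in vessels, behaved differently within the groups. It had 97.9 CPM, 68.5 CPM and 69.0 CPM in lactate replicates 1, 2 and 3, against 77.4 CPM, 58.9 CPM and 51.9 CPM in control replicates 1, 2 and 3. Replicate 1 was the highest library of each group, and control replicate 1 lay above lactate replicates 2 and 3, so the groups overlapped. The log2 fold change was 0.32 (SE 0.205, interval -0.14 to 0.78, edgeR adjusted p = 0.332). Without lactate replicate 1 it was 0.13, without control replicate 1 it was 0.50 and without control replicate 3 it was 0.20, none past the threshold. With each library's trend on GC content and transcript length removed it was -0.13 (adjusted p = 0.314), so the direction of *VEGFB*, whose transcript is 66.7% G and C, turned with this correction. That correction also takes out any difference between the groups that follows GC content or length.

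The balance of the VEGF ligands within each library needs no scaling between libraries. These ratios were chosen after the values were seen and are given as a description. The count ratio of *VEGFA* to *VEGFC* was 1.91, 1.91 and 1.78 in lactate replicates 1, 2 and 3, against 1.37, 1.19 and 1.25 in control replicates 1, 2 and 3. All 3 lactate ratios lay above all 3 control ratios, with a log2 difference of 0.56. This separation follows from the values of the 2 genes given above and adds no evidence to them. With the trend removed the difference was 0.56 again, but the transcripts are 51.3% (*VEGFA*) and 51.4% (*VEGFC*) G and C. A correction on GC content thus moves both nearly alike. How often ratios of other gene pairs separate the groups was not computed. The ratio of *VEGFB* to *VEGFC* was 1.55, 1.09 and 1.05 with lactate, against 1.03, 0.728 and 0.650 in control. Here too the groups did not overlap, but the log2 difference of 0.62 became 0.27 with the trend removed. The ratio of *VEGFA* to *VEGFB* overlapped between the groups (log2 difference -0.06, or 0.29 with the trend removed).

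**Figure D2:**
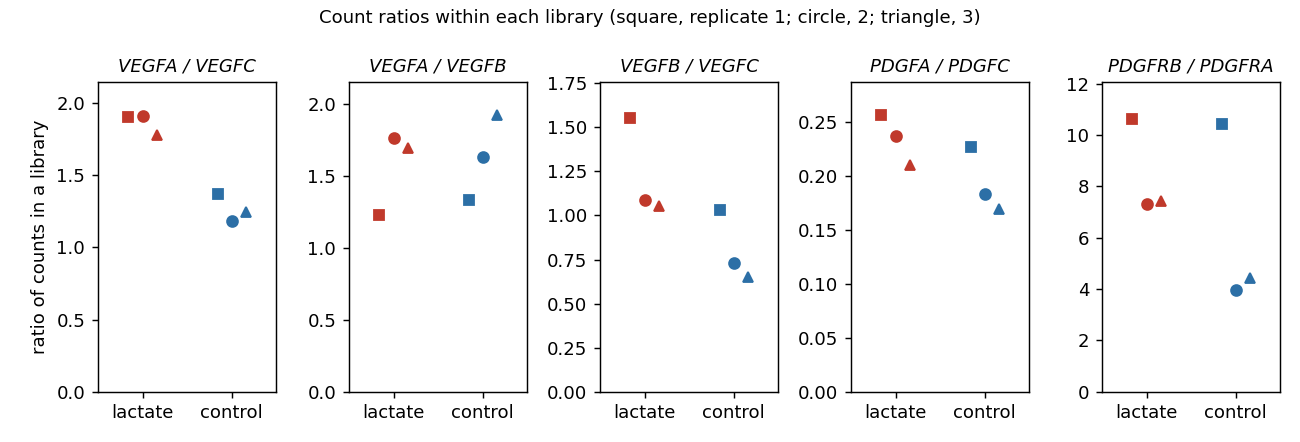
Count ratio of 2 genes within each library (y axes from 0) in the lactate libraries, at left in red, and the control libraries, at right in blue, for 5 pairs. For *VEGFA* to *VEGFC* the lactate ratios of 1.78 to 1.91 lie above the control ratios of 1.19 to 1.37, while for *PDGFRB* to *PDGFRA* replicate 1 (squares) is high in both groups.

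Of the PDGF ligands, *PDGFC* (chr4:156760454-156971394, minus strand), whose protein is activated by cleavage and signals mainly through the receptor encoded by *PDGFRA*, had 41.4 CPM, 46.5 CPM and 45.2 CPM in lactate replicates 1, 2 and 3, against 48.2 CPM, 65.3 CPM and 70.8 CPM in control replicates 1, 2 and 3. The groups did not overlap, but control replicate 1 lay close to the lactate libraries. The log2 fold change was -0.47 (SE 0.174, interval -0.86 to -0.08, unadjusted p = 0.0245, edgeR adjusted p = 0.121). Without control replicate 1 it was -0.62 with an adjusted p of 0.0185, past the threshold in a fit that called 23.1% of tested genes, and after removal of the GC and length trend it was -0.12, so its size depended on each of these choices. *PDGFA* (chr7:497258-520296, minus strand), the ligand with the classical role in fibroblast growth, had 10.6 CPM, 11.0 CPM and 9.50 CPM with lactate, against 10.9 CPM, 12.0 CPM and 12.0 CPM in control. These ranges overlapped, and the log2 fold change was -0.16 (SE 0.172, interval -0.55 to 0.22, edgeR adjusted p = 0.559), or -0.11 without lactate replicate 3 and -0.30 with the trend removed (adjusted p = 0.205).

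The PDGF receptors differed from each other in level and in how replicate 1 behaved. *PDGFRA* (chr4:54229097-54298247, plus strand) had 3.37 CPM, 5.17 CPM and 5.08 CPM in lactate replicates 1, 2 and 3, against 4.08 CPM, 7.95 CPM and 8.03 CPM in control replicates 1, 2 and 3. Replicate 1 was the lowest library of each group, and control replicate 1 lay below lactate replicates 2 and 3, so the groups overlapped. The log2 fold change was -0.54 (SE 0.306, interval -1.23 to 0.14, edgeR adjusted p = 0.275). Without control replicate 1 it was -0.81 with an adjusted p of 0.0439, past the threshold in the same fit, whereas with the trend removed it was -0.29 (adjusted p = 0.304). *PDGFRA* shares 66176 bases on its own strand with another annotated gene, *AC058822.1*, which makes its counts uncertain. *PDGFRB* (chr5:150113837-150155872, minus strand), the receptor that marks pericytes and activated fibroblasts, had 35.8 CPM, 37.8 CPM and 37.8 CPM with lactate, against 42.5 CPM, 31.5 CPM and 35.5 CPM in control. The lactate libraries lay inside the control range, and the log2 fold change was 0.02 (SE 0.161, interval -0.34 to 0.39, edgeR adjusted p = 0.936). The count ratio of *PDGFRB* to *PDGFRA* was 10.6, 7.32 and 7.44 with lactate, against 10.4, 3.96 and 4.42 in control, and the log2 difference of 0.56 became 0.06 with the trend removed.

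Of the remaining factors, *FGF2* and *VEGFA* had the highest CPM among the 10 genes, and *ANGPT1* was near the limit of detection. *FGF2* (chr4:122826708-122898236, plus strand), a growth factor for fibroblasts and endothelium, had 88.9 CPM, 109 CPM and 108 CPM in lactate replicates 1, 2 and 3, against 73.2 CPM, 117 CPM and 123 CPM in control replicates 1, 2 and 3. The ranges overlapped, with replicate 1 the lowest library of each group. The log2 fold change was -0.03 (SE 0.206, interval -0.49 to 0.43, edgeR adjusted p = 0.934), whereas with the trend removed it was 0.36 with an adjusted p of 0.0177. *FGF2* overlaps *NUDT6* on the opposite strand over 9540 bases, so its counts are uncertain to that extent. *NUDT6* averaged 5.40 ± 1.74 CPM with lactate and 6.84 ± 0.500 CPM in control (SD, n = 3 each).

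*ANGPTL4* (chr19:8363289-8374373, plus strand), an inhibitor of lipoprotein lipase and a target of PPAR receptors and of HIF, had 3.94 CPM, 1.82 CPM and 2.29 CPM in lactate replicates 1, 2 and 3, against 3.85 CPM, 3.86 CPM and 3.58 CPM in control replicates 1, 2 and 3. Lactate replicates 2 and 3 lay below all controls and lactate replicate 1 above them. The log2 fold change was -0.50 (SE 0.301, interval -1.18 to 0.18, edgeR adjusted p = 0.308), and with the trend removed it was -0.91 with an adjusted p of 0.0212. It was -0.87 without lactate replicate 1 (adjusted p = 0.0867) and -0.28 without lactate replicate 2 (adjusted p = 0.591). *ANGPT1*, the agonist of the TIE2 receptor, had 0, 6 and 13 counts in lactate replicates 1, 2 and 3, against 7, 11 and 15 counts in control replicates 1, 2 and 3. At this depth a difference was not detectable: a count of 0 in lactate replicate 1 allows up to 3 counts (0.158 CPM, counting error only), and the log2 fold change was -0.54 with an interval of -2.44 to 1.37 (SE 0.846, edgeR adjusted p = 0.706). Leaving out single libraries moved it between -1.54 (without lactate replicate 3) and -0.03 (without lactate replicate 1).

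**Figure D3:**
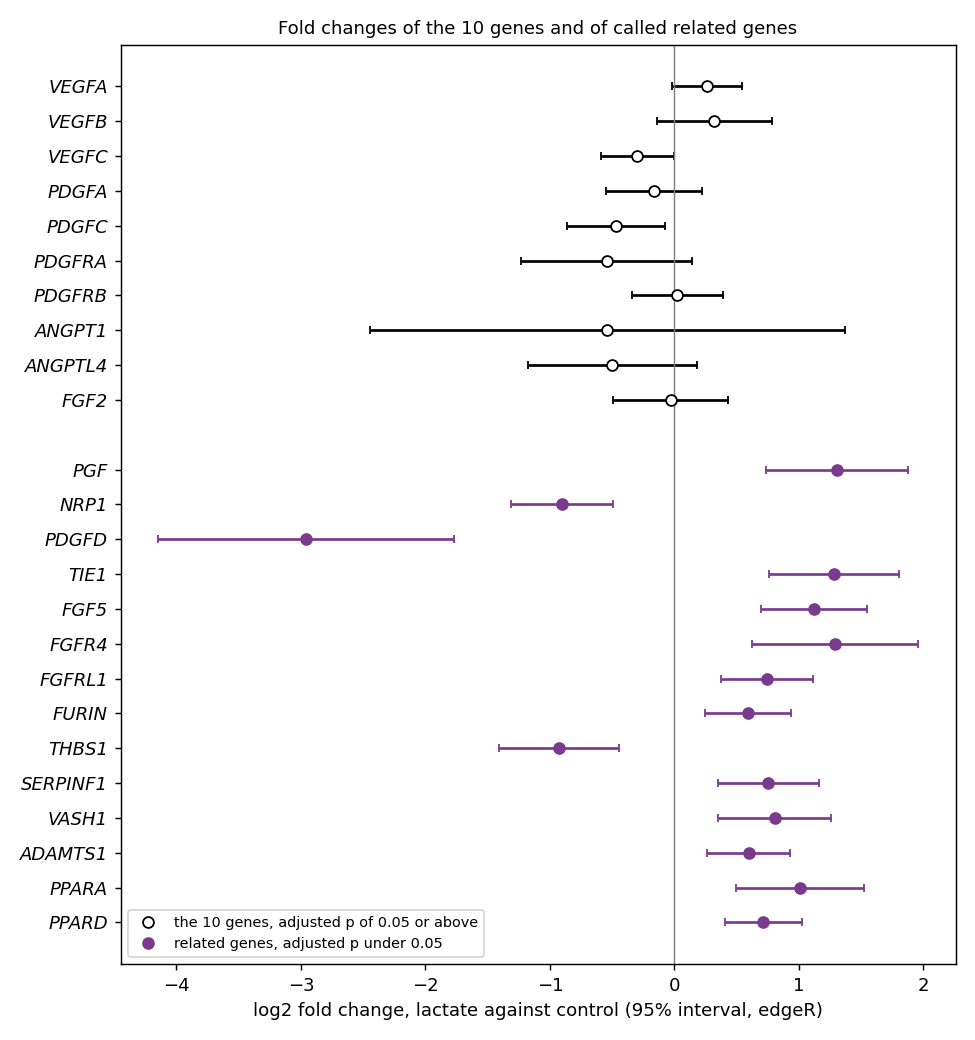
Log2 fold change of lactate against control with its 95% interval (x axis) for the 10 genes (black, open symbols, none past the threshold) and for the related genes named by rule that passed it (purple, filled). The intervals of 8 of the 10 genes include 0.

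Replicate 1 departed from the other libraries of its group by amounts that followed GC content for some of the 10 genes and not for others. In the lactate group, replicate 1 stood at a log2 ratio to the mean of replicates 2 and 3 of 0.51 for *VEGFB* and 0.94 for *ANGPTL4*, whose transcripts are 66.7% and 63.3% G and C, and of -0.08 for *PDGFRB* (57.6%). For the AT-rich transcripts the ratio was -0.29 for *FGF2* (37.5%), -0.15 for *PDGFC* (40.5%) and -0.61 for *PDGFRA* (42.9%). In the control group the ratio was 0.48 for *VEGFB*, 0.05 for *ANGPTL4* and 0.34 for *PDGFRB*, against -0.71 for *FGF2*, -0.50 for *PDGFC* and -0.97 for *PDGFRA*. Across the genes, Pearson's r with GC content was 0.814 with lactate (rho 0.817, 9 genes, without *ANGPT1*) and 0.859 in control (rho 0.855, 10 genes). The points of each group share the same 3 libraries, so these values are a description.

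**Figure D4:**
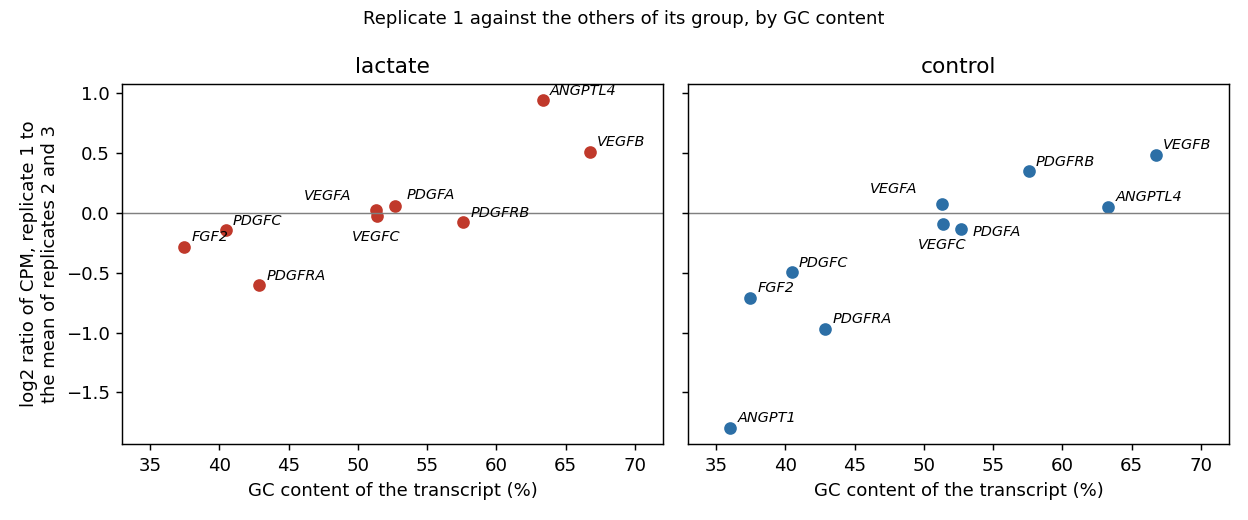
Log2 ratio of CPM in replicate 1 to the mean of replicates 2 and 3 (y axis) against GC content of the transcript in percent (x axis), for each of the 10 genes with lactate (left, without *ANGPT1*) and in control (right). GC-rich *VEGFB* lies at 0.51 with lactate and 0.48 in control, and AT-rich *FGF2* at -0.29 with lactate and -0.71 in control.

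How many of the 10 genes were called depended on the libraries kept and on the correction for GC content and length. With the trend removed, 3 of 10 passed (*FGF2* higher, *VEGFC* and *ANGPTL4* lower) against 24.9% of all tested genes. With the 4 libraries left when replicate 1 of each group was taken out, an alternative chosen after seeing the data, 6 of 10 passed against 47.4% of all tested genes. These were *VEGFA* (log2 fold change 0.28, adjusted p = 0.0148) and *VEGFB* (0.31, adjusted p = 0.0143), which were higher with lactate, and *VEGFC* (-0.32, adjusted p = 0.00758), *PDGFC* (-0.57, adjusted p = 2.33e-05), *PDGFRA* (-0.64, adjusted p = 0.00618) and *ANGPTL4* (-0.85, adjusted p = 0.0102), which were lower, all in edgeR. With the trend also removed from those 4 libraries, 5 of 10 passed against 43.3% of all tested genes: *FGF2* higher (0.26), and *VEGFC* (-0.43), *PDGFA* (-0.38), *PDGFC* (-0.19) and *ANGPTL4* (-1.23) lower. *VEGFC* and *ANGPTL4* passed in all 3, but these fits share libraries and are not separate tests. In the last of them *VEGFA* was at 0.13 (edgeR adjusted p = 0.102), and it was higher in every alternative. *VEGFC*, *ANGPTL4*, *PDGFA*, *PDGFC*, *PDGFRA* and *ANGPT1* were lower in every alternative that tested them, whereas *VEGFB*, *PDGFRB* and *FGF2* changed sign. Within each group, replicates 2 and 3 were the libraries most alike (chi-square over degrees of freedom 7.13 with lactate and 10.4 in control). Leaving out replicate 1 thus lowered the spread within groups, and the adjusted p values on 4 libraries do not measure the spread of all replicates. Base composition also differed between the groups in these 4 libraries.

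**Figure D5:**
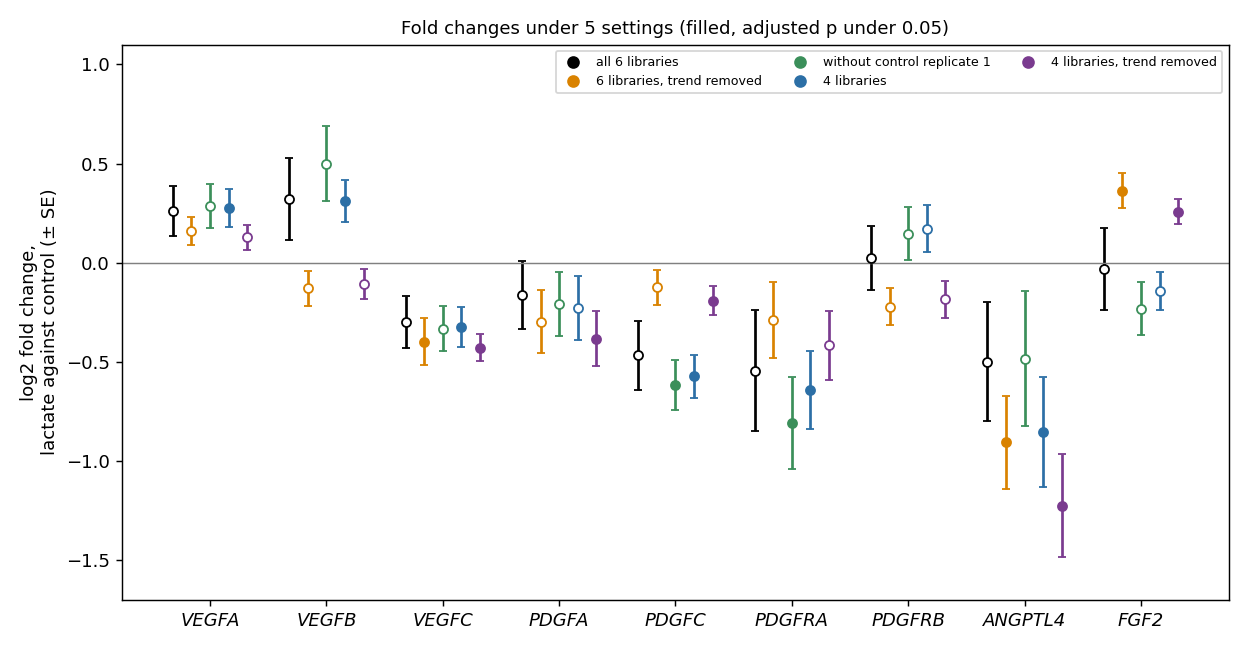
Log2 fold change of lactate against control ± SE (y axis) of 9 genes under 5 settings, with filled symbols where the edgeR adjusted p is under 0.05; *ANGPT1* is left out for its low counts. *VEGFC* and *ANGPTL4* lie below 0 under all 5, and *VEGFB* and *FGF2* cross 0 when the trend on GC content and length is removed.

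Other genes of these pathways did pass the threshold. Over the 8 related lists, 15 of 50 tested genes were called, 11 higher and 4 lower with lactate, against 5.29% and 4.14% of all tested genes. The lists were chosen with earlier results of these data known, so these counts are a description and show no enrichment. Among the other VEGF ligands and receptors, 1 of 3 rose and 1 of 3 fell. *PGF*, a ligand of VEGFR1, had 9.10 CPM, 5.38 CPM and 6.43 CPM with lactate, against 3.16 CPM, 2.57 CPM and 2.64 CPM in control (log2 fold change 1.31, SE 0.253, edgeR adjusted p = 0.0186). *NRP1*, the VEGF and semaphorin co-receptor, had 83.7 CPM, 121 CPM and 117 CPM with lactate, against 177 CPM, 192 CPM and 232 CPM in control (-0.90, SE 0.182, edgeR adjusted p = 0.0203). The groups did not overlap for either gene, and the VEGF receptor genes *FLT1*, *KDR* and *FLT4* had too few counts to be tested.

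Of the 3 other PDGF genes tested, 1 fell and none rose. For this list and those below, the shares of all tested genes are 5.29% higher and 4.14% lower. Lists of so few genes allow no comparison with these shares. *PDGFD*, a ligand of the receptor encoded by *PDGFRB*, had 2, 8 and 7 counts with lactate, against 46, 46 and 69 counts in control, and its log2 fold change was -2.96 (SE 0.527, edgeR adjusted p = 0.0131). Of 3 angiopoietin-related genes 1 rose, *TIE1*, an orphan receptor that modulates TIE2, at 11.9 ± 1.64 CPM with lactate and 4.87 ± 1.12 CPM in control (SD, n = 3 each). Its log2 fold change was 1.28 (edgeR adjusted p = 0.0135), while *TEK*, which encodes TIE2, had -0.09. Of 10 other FGF ligands and receptors 3 rose and none fell. *FGF5* averaged 32.7 ± 4.80 CPM with lactate and 15.0 ± 2.21 CPM in control (log2 fold change 1.12, edgeR adjusted p = 0.0101), and the receptor genes *FGFR4* (1.29) and *FGFRL1* (0.74) also passed. *FURIN*, a convertase that cuts the VEGFC and PDGFA precursors, was the 1 of 5 processing genes that passed (0.59, edgeR adjusted p = 0.0447).

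Endogenous inhibitors of angiogenesis moved in both directions, with 3 of 8 higher and 2 of 8 lower, against 5.29% and 4.14% of all tested genes. *THBS1*, which encodes thrombospondin-1, averaged 62.7 ± 13.9 CPM with lactate and 119 ± 24.0 CPM in control (log2 fold change -0.93, edgeR adjusted p = 0.0311), while *VASH1* (0.81), *SERPINF1* (0.75) and the protease gene *ADAMTS1* (0.60) rose. The inhibitor gene *TIMP3* fell by 0.55 on the log2 scale. None of 7 HIF subunit and oxygen sensor genes passed in edgeR, DESeq2 or limma-voom, against 9.43%, 17% and 8.08% of all tested genes. In edgeR 0 had an unadjusted p under 0.05, against 27.8% (range of log2 fold changes -0.49 to 0.24). With 4 libraries 3 of this list passed, against 47.4% of all tested genes. With the trend also removed 1 passed, against 43.3%. Of 11 PPAR receptor and target genes, the receptor genes *PPARA* (1.01) and *PPARD* (0.71) rose and none fell, against the same 5.29% and 4.14%. Each of these 14 named calls was lost when lactate replicate 3 or control replicate 2 was left out. In those fits 0 of 50 related genes passed in edgeR, against 1.56% and 1.28% of all tested genes, so calls were lost across all genes. Of the 50, 18 and 17 had an unadjusted p under 0.05 in edgeR, and the share of all tested genes at that limit is not given for those fits. Outside of left-out libraries, *FURIN* also lost its call with no filter on low counts (adjusted p = 0.0509), and *THBS1* (0.0552), *ADAMTS1* (0.0600) and *PPARA* (0.0517) lost theirs on total counts alone. With the trend removed, the log2 fold change was 0.26 for *FURIN*, 0.42 for *FGFRL1* and 0.44 for *PPARD*, all still called. All 14 kept their direction under each alternative that tested them, and *PGF*, *PDGFD*, *TIE1*, *FGFR4* and *VASH1* were not tested at a mean of at least 10 CPM.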

How the data were processed

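The labels give 6 poly(A) RNA-seq libraries of WPMY-1 cells, from directional kits read single-end, and groups came from the treatment label. The authors deposited whole-number read counts per gene, made in an alignment application. STAR, DESeq2 and the hg38 build appear in the submitters' processing notes. Their versions and the use of strand are not given in the sources used here. The table had 0 columns of no sample.

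The test was that of edgeR 4.0.16 (R 4.3.3, TMM scaling, filterByExpr by group, quasi-likelihood F test, two-sided), with Benjamini-Hochberg adjustment over 13188 genes, which held 99.96% of the counts, and a threshold of 0.05. Levels are TMM-scaled CPM. Fold changes compare lactate with control, and their standard errors were derived from F. The common coefficient of variation was 20.2%. GENCODE 29 (GRCh38) gave positions, lengths and GC content for 15293 of 15924 symbols. Alternatives were DESeq2 1.42.0, limma-voom (limma 3.58.1), other scalings and filters, removal of a spline trend (5 degrees of freedom each) on GC content and log length from each library, and each library left out. The fits, and the removal of an added trend, were tested on simulated data. The limit set there on recovery of changed genes was not applied to the main fit with an added trend left in. The limit on false calls was applied only to the main fit without an added trend. How many changes the main fit recovers or misses with such a trend present is therefore not given here. The closest libraries, lactate replicates 2 and 3, had a chi-square over degrees of freedom of 7.13, so none was a copy.

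The 10 genes and all lists were chosen with earlier results of these data known. All 10 are named. From each related or marker list, up to 4 called genes with the largest change are named, or otherwise up to 2 with the highest level, except for oxygen sensors, PPAR genes and markers. Other genes named were chosen after their values were seen. Levels per kilobase were planned on the longest transcript, and the RefSeq-paired length was added after seeing the data. The planned comparison of protein sequences was not run. Replicate numbers follow sample order.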

Additional observations from a re-analysis of the deposited data

How the results depend on the processing

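No paired analysis was possible because the labels give no replicate numbers, and numbers in sample order pair nothing. Fits on 4 libraries (replicate 1 of each group left out) were chosen after seeing the data. The number of the 10 genes called in edgeR was 3 after removal of the GC and length trend, 6 with 4 libraries, 5 with 4 libraries and the trend removed, and 0 to 2 when single libraries were left out, the 2 coming without control replicate 1. In the other single left-out fits, 0 or 1 had an unadjusted p under 0.05. The number of all genes called, 1244 with all libraries, was 717 among genes with a mean of at least 10 CPM, 2247 with DESeq2, 3290 with the trend removed, 6295 with 4 libraries, 5758 with 4 libraries and the trend removed, and 172 (without control replicate 2) to 3092 (without control replicate 1) when single libraries were left out. Of called genes, 56.1% were higher with lactate, against 45.6% with the trend removed. The number of related genes called, 15 with all libraries, was 31 with 4 libraries, 26 with 4 libraries and the trend removed, and 0 to 19 when single libraries were left out.

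Log2 fold changes past the threshold only in an alternative were, with the trend removed, -0.40 for *VEGFC*, -0.91 for *ANGPTL4* and 0.36 for *FGF2*, the last with its sign turned. With 4 libraries they were 0.28 for *VEGFA*, 0.31 for *VEGFB*, -0.32 for *VEGFC*, -0.57 for *PDGFC*, -0.64 for *PDGFRA* and -0.85 for *ANGPTL4*. With 4 libraries and the trend removed they were -0.43 for *VEGFC*, -0.38 for *PDGFA*, -0.19 for *PDGFC*, -1.23 for *ANGPTL4* and 0.26 for *FGF2*. Signs also turned without a call for *VEGFB* (-0.13 with the trend removed and -0.11 with 4 libraries and the trend removed), *PDGFRB* (-0.22 and -0.19 in the same fits) and *FGF2* (0.0129 in limma-voom). When single libraries were left out, the values ran from -0.62 to -0.36 for *PDGFC*, -0.81 to -0.37 for *PDGFRA*, -0.0753 to 0.15 for *PDGFRB*, -0.23 to 0.10 for *FGF2*, 0.13 to 0.50 for *VEGFB*, -0.21 to -0.11 for *PDGFA*, -0.87 to -0.28 for *ANGPTL4* and -1.54 to -0.03 for *ANGPT1*. The cause was not tested. By the median annotated transcript, control levels per kilobase were 90.6 CPM for *VEGFA*, 76.4 CPM for *VEGFB*, 55.7 CPM for *VEGFC*, 78.2 CPM for *PDGFC* and 51.3 CPM for *PDGFRB*. Depth limited *ANGPT1*, with 0 to 13 counts with lactate and 7 to 15 in control.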
